A study of Oryza sativa Indica Group with 16 samples.

Results

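Salt-stressed rice seedlings were examined here for the transcripts of 6 genes that make compatible solutes, the small uncharged molecules that plants build up when water is held back by salt: P5CS1 and P5CS2 for proline, TPS1, TPP1 and TPP2 for trehalose, and BADH1 for glycine betaine. A probe set, the unit of an Affymetrix array, was taken when the platform's annotation gave it to exactly one of these genes by symbol or synonym, with or without the prefix Os. This rule found 8 probe sets of 57258, for 5 of the 6 genes. In all, the annotation gave 17905 genes a probe set of their own. P5CS2 had 4, P5CS1, TPP1, TPP2 and BADH1 had 1 each, and TPS1 had none and is not analysed here. The name TPP2 is also a synonym of another rice gene, tripeptidyl peptidase II, whose probe sets were not counted.

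The study measured total RNA of 10-day-old Indica rice seedlings of 4 genotypes on 16 arrays, 2 for each of 8 groups. The groups were a salt-tolerant bulk and a salt-sensitive bulk, each a pool of recombinant lines with that phenotype, the salt-sensitive parent MI48 and the salt-tolerant parent CSR27. Each genotype was taken after 24 h of 150 mM NaCl and under control conditions. A bulk pools several lines, so its value is an average over genotypes, and the organ sampled is not named in the labels. The series calls the 2 arrays of a group biological replications without saying how the plants were divided, so the p-values below measure the spread between these arrays.

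Proline is made from glutamate, and delta-1-pyrroline-5-carboxylate synthetase (P5CS) carries out the first, rate-limiting reaction of that route. Trehalose is made by a pair of enzymes: trehalose-6-phosphate synthase (TPS) joins the sugars, and trehalose-6-phosphate phosphatase (TPP) removes the phosphate, so that a TPP both makes trehalose and uses up trehalose 6-phosphate, a signal of the plant's sugar status. Betaine aldehyde dehydrogenase (BADH) oxidises betaine aldehyde to glycine betaine, a solute that rice is known to accumulate poorly. Proline content is known to rise in rice under salt.

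The 8 bulk arrays ranked the probe sets alike, with Spearman rho from 0.9 to 0.93 between arrays, while the 6 usable parent arrays reached 0.64 to 0.77. For CSR27, replicate 2 of the control and replicate 1 of the salt treatment lacked rice signal (highest rho 0.01) and were left out, so CSR27 had 1 array per condition. The number of arrays limits the precision of every value. Summed leaf markers (12 probe sets, 1 of them below the median signal of all probe sets on all bulk arrays) lay at 39002 to 41788 in the tolerant bulk under salt, 43783 to 61770 in its control, 51887 to 55268 in the sensitive bulk under salt and 35432 to 47734 in its control. Summed root markers (11 probe sets, none below that median throughout) lay at 2911 to 2950 in the tolerant bulk under salt, 3609 to 3651 in its control, 2567 to 2704 in the sensitive bulk under salt and 2501 to 3090 in its control. Summed seed endosperm markers (25 probe sets, 1 below that median throughout) lay at 5526 to 5566 in the tolerant bulk under salt, 11693 to 13373 in its control, 5417 to 5570 in the sensitive bulk under salt and 2354 to 2377 in its control. The part of these tissue differences in the results below was not tested.

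Of the 8 probe sets, 6 passed the filter on dim signals in the bulks. Signals are scaled intensities, with every array set to a common median, and the level of one probe set cannot be set against that of another. In such samples fewer cells of a type and less RNA per cell cannot be told apart. Tests were made with limma on log2(signal + 3.86) over the 8 bulk arrays, with Benjamini-Hochberg adjustment over the 32977 probe sets tested and a threshold of 0.05. Under the scaling used, the median of all tested probe sets lay at -0.14 in the tolerant bulk, -0.15 in the sensitive bulk and -0.14 in their average on the log2 scale, so a probe set at 0 stood slightly above the middle of the array.

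Among the proline genes, P5CS2 had the larger response to salt in both bulks. Its probe set Os.33244.1.S1_at read 110.7 and 117.6 in the tolerant bulk under salt, against 27.4 and 31.1 in its control arrays. The sensitive bulk gave 84.7 and 75.1 under salt, against 32.5 and 32.8 in control. All 4 salt arrays lay above all 4 control arrays, and the controls of both bulks lay close together. The ratio of mean signals was 3.9 in the tolerant bulk (114.1 ± 4.84 under salt, 29.3 ± 2.59 in control) and 2.45 in the sensitive bulk (79.9 ± 6.81 under salt, 32.6 ± 0.221 in control; SD, n = 2 arrays). P5CS2 rose by 1.84 ± 0.23 (SE) on the log2 scale in the tolerant bulk, with a limma adjusted p of 0.0012. It rose by 1.2 in the sensitive bulk, with a limma adjusted p of 0.013. That call was lost without sensitive bulk salt replicate 1 (1.11, limma adjusted p 0.1), without salt replicate 2 (1.28, 0.084) and in a fit of the sensitive arrays alone (0.092). The call in the tolerant bulk held with each array left out in turn.

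The other probe sets of P5CS2 did not show this rise. Os.33244.1.S2_at read 41.0 and 20.9 in the tolerant bulk under salt, against 39.4 and 24.2 in control, and 30.6 and 26.2 in the sensitive bulk under salt, against 29.4 and 26.2 in control. Its groups overlapped in both bulks, and its averaged difference was -0.02 with a limma adjusted p of 0.97. Os.51895.1.S1_at failed the filter on dim signals, at 11.2 and 1.29 in the tolerant bulk under salt, against 25.7 and 16.9 in control. In the sensitive bulk it read 4.85 and 9.22 under salt, against 13.99 and 15.4 in control. Its dim signal was thus lower under salt in both bulks, a separation seen in 38.9% and 33.4% of all tested probe sets. Without the filter neither fall was called (-1.49 and -0.8, limma adjusted p 0.32 and 0.6). Os.27547.3.A1_at stayed between 0.106 and 0.334 on the 8 arrays. The result for P5CS2 thus rests on 1 of the 4 probe sets assigned to it.

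P5CS1, the other copy of the enzyme, moved less. It read 1115 and 1236 in the tolerant bulk under salt, against 836 and 852 in control. For the sensitive bulk it read 1069 and 1034 under salt, against 986 and 616 in control. The groups did not overlap in either bulk, although the control arrays of the sensitive bulk lay far apart. The ratio of mean signals was 1.39 in the tolerant bulk and 1.31 in the sensitive bulk. Its log2 difference was 0.47 ± 0.19 in the tolerant bulk and 0.43 in the sensitive bulk, and neither passed the threshold (limma adjusted p 0.2 and 0.21). With quantile normalization, which puts the median of all probe sets near 0, both did, at 0.71 and 0.67 (limma adjusted p 0.014 and 0.016). In the sensitive bulk the value also hung on its control arrays, at 0.77 without replicate 1 (limma adjusted p 0.0045) and 0.09 without replicate 2 (0.63). In the tolerant bulk, 0.47 also passed without sensitive bulk control replicate 1 (limma adjusted p 0.0091) or replicate 2 (0.009), and when the tolerant arrays were fitted alone (0.019).

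**Figure D1:**
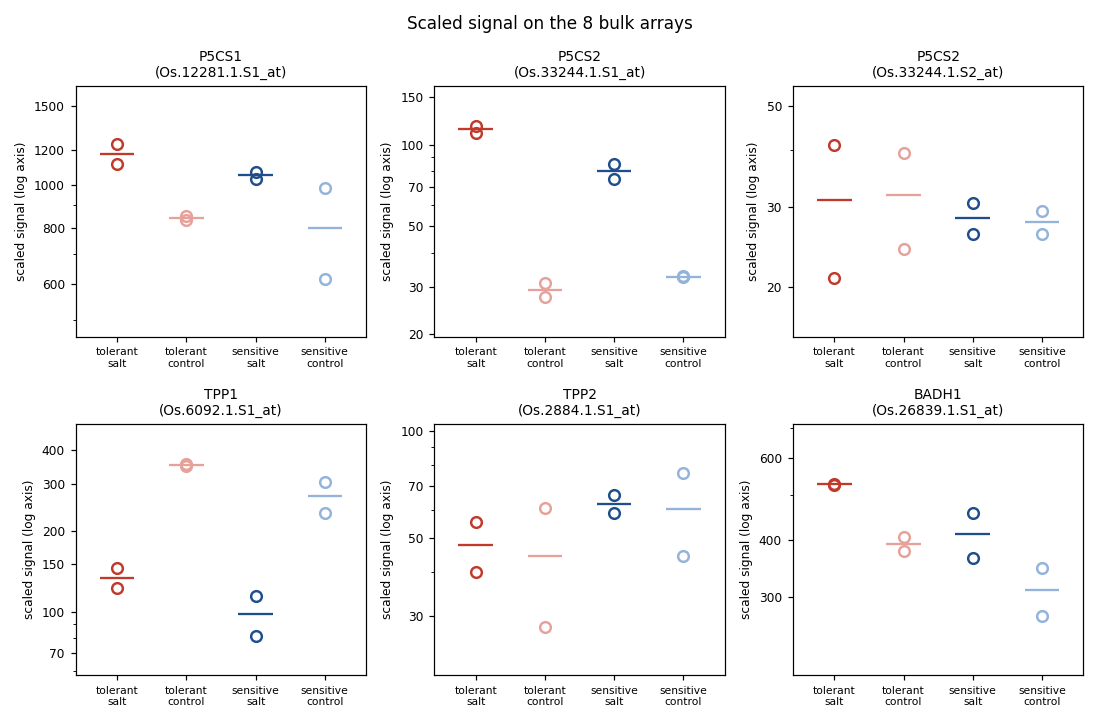
Scaled signal (log axis, no unit) of the 6 tested probe sets on the 8 bulk arrays, in the tolerant bulk under salt and control and the sensitive bulk under salt and control; circles are arrays and short lines are means of 2. The P5CS2 probe set Os.33244.1.S1_at reads 75.1 to 117.6 under salt and 27.4 to 32.8 in control, and TPP1 reads 81.3 to 145.4 under salt and 233.9 to 355.8 in control.

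Of the trehalose genes, TPP1 fell under salt in both bulks. TPP1 encodes a trehalose-6-phosphate phosphatase. It read 122.6 and 145.4 in the tolerant bulk under salt, against 355.8 and 348.9 in control, and 114.3 and 81.3 in the sensitive bulk under salt, against 233.9 and 304.1 in control. Every salt array lay below every control array of either bulk. The ratio of mean signals was 0.38 in the tolerant bulk (134.0 ± 16.1 under salt, 352.4 ± 4.84 in control) and 0.364 in the sensitive bulk (97.8 ± 23.3 under salt, 269.0 ± 49.7 in control; SD, n = 2 arrays). On the log2 scale TPP1 fell by 1.37 ± 0.21 in the tolerant bulk (limma adjusted p 0.0035) and by 1.43 in the sensitive bulk (0.0031). In the tolerant bulk the limma adjusted p became 0.051 without control replicate 1, 0.055 without control replicate 2 and 0.055 without salt replicate 1. For the sensitive bulk it became 0.051 without salt replicate 2. Leaf markers fell in 4 of 11 and endosperm markers in 8 of 23 tested probe sets in the tolerant bulk, where 4.43% of all tested probe sets fell. In the sensitive bulk 0 leaf markers were called and 7 endosperm markers rose, where 1.75% of all tested probe sets rose. Of 9 tested root markers, 2 fell in the tolerant bulk and 1 rose in the sensitive bulk. The part of these tissue differences in the fall of TPP1 was not tested.

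TPP2, a second phosphatase of this family, gave no call. It read 55.4 and 40.1 in the tolerant bulk under salt, against 60.7 and 28.0 in control. It read 66.1 and 58.7 in the sensitive bulk under salt, against 76.3 and 44.3 in control. The salt arrays lay between the control arrays in both bulks, with differences of 0.17 and 0.09 on the log2 scale and an averaged difference of 0.13 (limma adjusted p 0.8).

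BADH1, the glycine betaine enzyme, read 525.7 and 529.1 in the tolerant bulk under salt, against 404.9 and 378.4 in control. The sensitive bulk gave 457.8 and 364.1 under salt, against 347.4 and 273.2 in control. Salt arrays lay above the control arrays within each bulk, but the tolerant control arrays overlapped the salt arrays of the sensitive bulk. The ratio of mean signals was 1.35 in the tolerant bulk and 1.32 in the sensitive bulk. The log2 differences of 0.43 ± 0.17 and 0.40 missed the threshold (limma adjusted p 0.19 and 0.18), and with quantile normalization both were 0.64 and passed it (0.015 and 0.012). In the tolerant bulk 0.43 also passed without either control array of the sensitive bulk (limma adjusted p 0.045 for each) and in a fit of the tolerant arrays alone (0.026). In the sensitive bulk the value was 0.57 without its control replicate 1 and 0.57 without its salt replicate 2, and 0.23 without control replicate 2 and 0.24 without salt replicate 1.

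In each bulk alone, 2 of the 6 tested probe sets were called, with P5CS2 higher and TPP1 lower. Of all tested probe sets, 0.986% were called higher and 4.43% lower in the tolerant bulk, and 1.75% higher and 4.78% lower in the sensitive bulk (5.41% and 6.53% in either direction). At an unadjusted p under 0.05 it was 4 of the 6 in each bulk, against 19% of all tested probe sets in the tolerant and 22.5% in the sensitive bulk. By overlap, P5CS1, P5CS2 (Os.33244.1.S1_at) and BADH1 were higher on both salt arrays than on both control arrays in each bulk, and TPP1 was lower. Such separation was common: 16% of all tested probe sets were higher and 38.9% lower without overlap in the tolerant bulk, and 15.3% and 33.4% in the sensitive bulk. The median over the 6 tested probe sets was 0.30 in the tolerant bulk and 0.25 in the sensitive bulk, against -0.14 and -0.15 over all tested probe sets.

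The average of both bulks' responses gave 4 calls of 6, where 2.63% of all tested probe sets were called higher and 12.3% lower (14.9% in all). P5CS2 rose by 1.52 ± 0.16 on the log2 scale (limma adjusted p 0.00018) and TPP1 fell by 1.4 ± 0.15 (0.00016), and both calls held with each of the 8 arrays left out. P5CS1 rose by 0.45 ± 0.13 (0.044) and BADH1 rose by 0.41 ± 0.12 (0.038). Those last 2 lay close to the threshold. Without the filter on dim signals they missed it (limma adjusted p 0.092 for P5CS1 and 0.062 for BADH1), as they did without either tolerant control array (P5CS1 0.13 and 0.12, BADH1 0.11 and 0.14) or either tolerant salt array (P5CS1 0.096 and 0.15, BADH1 0.11 and 0.12). They also missed it without sensitive bulk salt replicate 1 (0.13 and 0.16) or replicate 2 (0.13 and 0.055). Without sensitive bulk control replicate 2, P5CS1 stood at 0.28 and passed (0.016). With quantile normalization the averaged rises were 0.69 for P5CS1 and 0.64 for BADH1. In a comparison of the 4 salt arrays with the 4 control arrays, P5CS1 and P5CS2 lay higher and TPP1 lower without overlap, against 3.13% of all tested probe sets higher and 12.3% lower.

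The choice of arrays in the fit decided whether any of these differences was called. When the parent arrays with rice signal were added, for 14 arrays in all, 0 of the 6 passed in the tolerant bulk, the sensitive bulk or their average. P5CS2 then had an averaged difference of 1.52 with a limma adjusted p of 0.36. With all 16 arrays there were again 0 calls among the 6. The plot of the averaged response under each processing shows the same sizes with wider errors there.

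**Figure D2:**
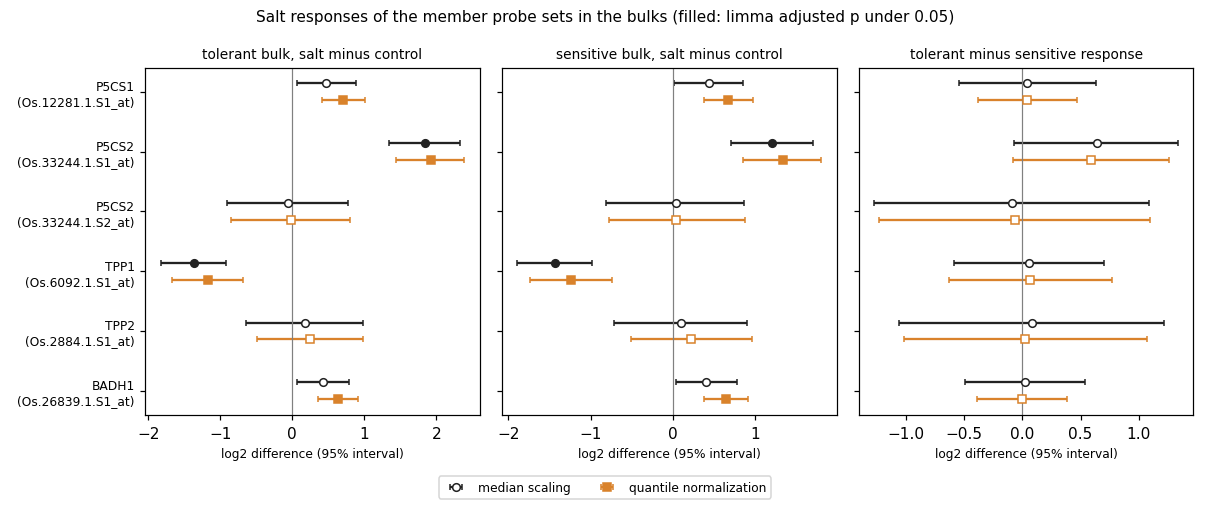
Log2 difference with its 95% interval for the 6 tested probe sets (top to bottom), salt minus control in the tolerant bulk (left), in the sensitive bulk (middle), and the tolerant minus the sensitive response (right), with median scaling in black and quantile normalization in orange; filled symbols have a limma adjusted p under 0.05. P5CS2 and TPP1 are filled in both bulks under both scalings, P5CS1 and BADH1 under quantile normalization alone, and no symbol is filled on the right.

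**Figure D3:**
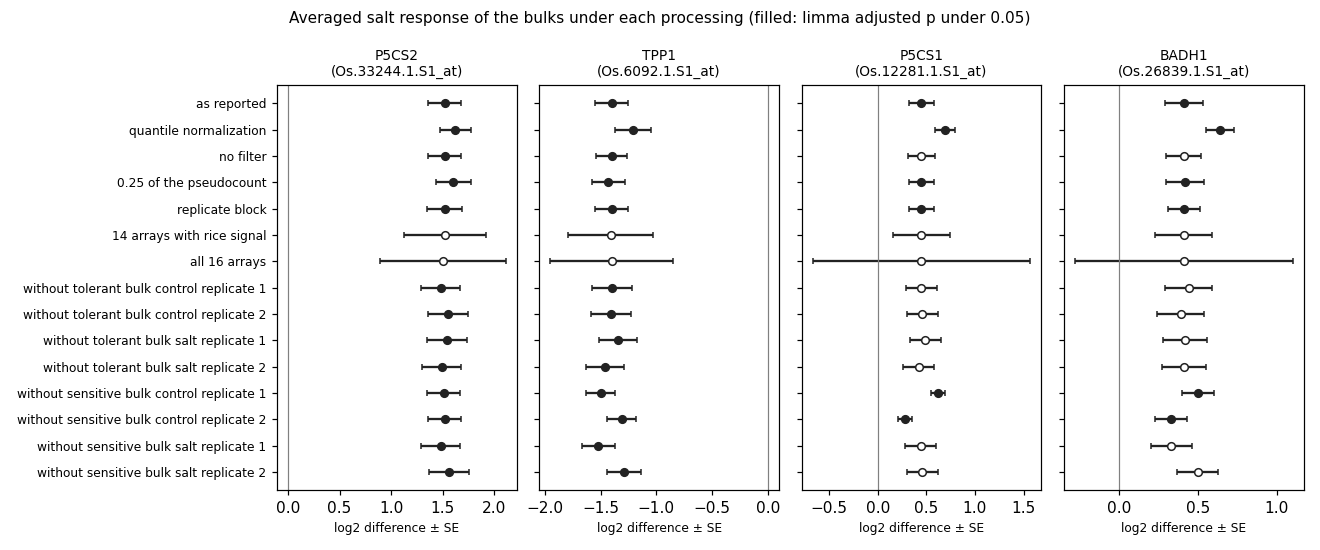
Averaged salt response of the bulks (log2 difference ± SE, x axis) of P5CS2, TPP1, P5CS1 and BADH1 under each processing (y axis); filled symbols have a limma adjusted p under 0.05. All symbols for P5CS2 and TPP1 are filled but those for 14 and 16 arrays, while those for P5CS1 and BADH1 are filled under quantile normalization and open without the filter.

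The bulks were then compared with each other. Under salt, P5CS2 (Os.33244.1.S1_at) was higher in the tolerant bulk by 0.50 ± 0.23 on the log2 scale, with a 95% interval from 0 to 0.99 and a limma adjusted p of 0.34. In control it differed by -0.14 ± 0.23 (interval -0.64 to 0.36, limma adjusted p 0.84). The order of its group means was tolerant salt, sensitive salt, sensitive control and tolerant control, and in this order the first 2 and the last 2 did not differ beyond the threshold. The salt response was larger in the tolerant bulk by 0.64 ± 0.32 (interval -0.07 to 1.34), and this difference was not called (limma adjusted p 0.76).

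TPP1 was 0.40 ± 0.21 higher in the tolerant bulk in control (interval -0.06 to 0.85) and 0.45 ± 0.21 higher under salt (interval 0 to 0.91), with limma adjusted p of 0.43 and 0.33. The 2 responses of TPP1 differed by 0.06, with an interval from -0.59 to 0.70. The order of its means was tolerant control, sensitive control, tolerant salt and sensitive salt. BADH1 was 0.34 ± 0.17 higher in the tolerant bulk in control and 0.37 ± 0.17 higher under salt (limma adjusted p 0.39 and 0.33). Its arrays did not overlap between bulks in either condition. P5CS1 differed by 0.11 in control and 0.16 under salt, with responses that differed by 0.04 (interval -0.54 to 0.63).

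With limma, 0 of the 6 probe sets were called between the bulks in control, where 1.46% of all tested probe sets were. Under salt it was also 0 of the 6, where 0.719% of all were called higher and 0.564% lower in the tolerant bulk (1.28% in all). For the difference of both responses it was 0 of the 6, and 0.173% of all. At an unadjusted p under 0.05 the counts were also 0, against 14.1% of all in control, 15% under salt and 6.87% where the responses were compared. The 0 under salt hung on the cut itself. There P5CS2 (Os.33244.1.S1_at), TPP1 and BADH1 had unadjusted limma p of 0.051, 0.05 and 0.05. By overlap, 2 of the 6 were higher and 1 lower in the tolerant bulk in control, against 26.9% and 14.7% of all tested probe sets, and 4 were higher and 1 lower under salt, against 33.8% and 17.5%. One library moved one of these calls: without sensitive bulk control replicate 1, P5CS1 was higher in the tolerant bulk in control by 0.45 (limma adjusted p 0.037).

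Other genes of the same 3 pathways were described from a list of symbols. The annotation named 9 of them on 11 probe sets, of which 10 were tested in the bulks. In the averaged response 0 of the 10 rose and 1 fell by limma's adjusted p, and 3 had an unadjusted p under 0.05. Both counts lie near the background, where 12.3% of all tested probe sets were called lower and 28.7% had an unadjusted p under 0.05. Their median was -0.08, against -0.14 over all tested probe sets. The gene that fell was PROT, a proline transporter. It read 49.95 and 41.4 in the tolerant bulk under salt, against 91.1 and 74.8 in control. PROT in the sensitive bulk read 30.9 and 62.5 under salt, against 119.6 and 78.9 in control. All salt arrays lay below all control arrays, and PROT fell by 0.94 ± 0.23 on the log2 scale (limma adjusted p 0.02), a call that was lost without any one of the 4 tolerant arrays (0.051 to 0.086) or without sensitive bulk salt replicate 1 (0.066), and in the fits of 14 and 16 arrays.

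Ornithine aminotransferase (OAT) feeds the same pyrroline-5-carboxylate pool from ornithine. Its 2 probe sets had averaged differences of 0.52 and 0.27, with limma adjusted p of 0.33 and 0.16. With quantile normalization Os.18830.1.S2_at was 0.50 higher under salt and passed (limma adjusted p 0.0041). Of the other phosphatases, TPP7 had averaged differences of -0.56 and -0.49 on its 2 probe sets, TPP4 of -0.67 and TPP6 of 0.74, none of which passed. TPP6 had a difference of 0.09 in the tolerant and 1.39 in the sensitive bulk (limma adjusted p 0.95 and 0.15). In control TPP6 was 1.72 higher in the tolerant bulk, which also missed the threshold (limma adjusted p 0.16, unadjusted p 0.0079). The differences of 1.39 and 1.72 are both taken against the sensitive bulk control arrays. There TPP6 read 1.83 and 6.02, under the filter's limit of 17.7 for the bulks, so these sizes are imprecise. It read 12.1 and 20.4 in the sensitive bulk under salt, and 19.5 and 22.1 in the tolerant bulk in control. TPP9 (0.03) and TPP10 (-0.12) lay close to 0 in the bulk average, and TPP3 failed the filter on dim signals. Of these other genes, 7 probe sets were tested in MI48, where 5 lay above 0 and 0 were called. There TPP9 was 3.04 and Os.18830.1.S2_at 2.89 higher under salt (limma adjusted p 0.12 for each), against a median of 0.67 over all. With quantile normalization they were 1.94 and 1.55, and in CSR27, with 1 array per condition, -0.05 and 1.16. Below 0 in MI48 were TPP7 (Os.14828.1.A1_s_at) at -2.08 and TPP4 at -1.03 (limma adjusted p 0.24 and 0.56). In CSR27 these were -2.11 and -0.24. TPP7 read 0.636 and 0.165 on the MI48 salt arrays, under the filter's limit of 1.9. BADH2, the second betaine aldehyde dehydrogenase gene of rice, known for its role in grain fragrance, had an averaged difference of -0.05 (limma adjusted p 0.89).

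**Figure D4:**
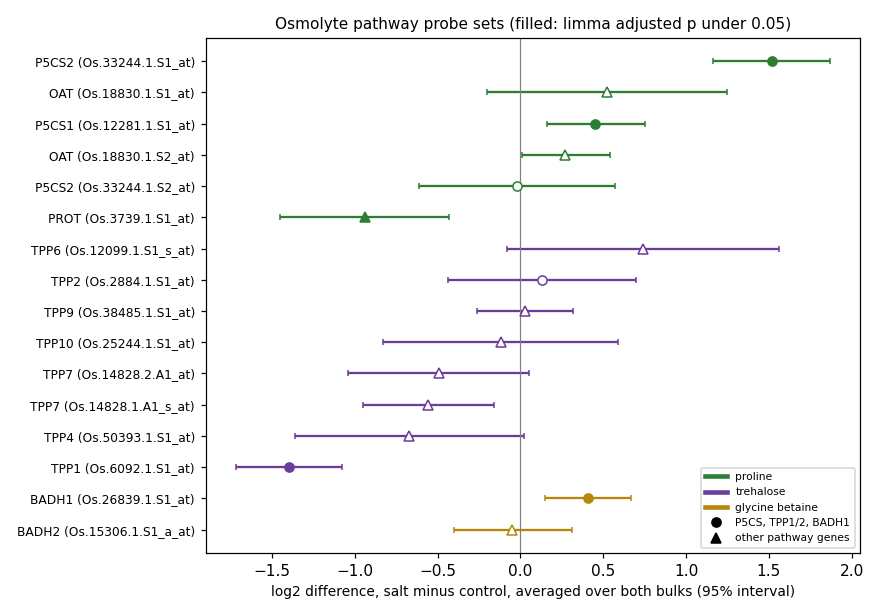
Averaged salt response of the bulks (log2 difference, salt minus control, with its 95% interval, x axis) for the 6 tested probe sets (circles) and the 10 tested probe sets of other genes of the 3 pathways (triangles), grouped by pathway (y axis); filled symbols have a limma adjusted p under 0.05. P5CS2 (Os.33244.1.S1_at) at 1.52, P5CS1 at 0.45 and BADH1 at 0.41 are filled to the right of 0, and TPP1 at -1.4 and PROT at -0.94 to the left. Os.33244.1.S2_at of P5CS2 is open at -0.02.

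The named genes whose pattern over the 8 bulk arrays was most like each of the 4 called genes were found by the root mean square distance of centred log2 values, among 2778 or 2779 named probe sets. Nearest to P5CS2 were OsC3H35 (distance 0.167), ABIL1 (0.203) and LTP-2 (0.259). Nearest to TPP1 were CIPK10 on 2 probe sets (0.201 and 0.233) and Os8N3 (0.233). For P5CS1 they were OsCASPL1E1 (0.097), ME6 (0.098) and GL2-4 (0.099), and for BADH1 they were EXPB17 (0.114), BLE3 (0.121) and Rf2 (0.126). Such distances are small wherever the changes are small, so they do not rank the closeness of match between the 4 genes. EXPB17, BLE3 and Rf2 had averaged salt responses of 0.21, 0.25 and 0.38, against 0.41 for BADH1.

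The parent arrays were scaled and fitted by themselves, with a pseudocount of 0.356 and 37010 probe sets tested, so their levels cannot be set against those of the bulks. In MI48, the sensitive parent, 5 of the 6 probe sets were higher on both salt arrays than on both control arrays, as were 41% of all tested probe sets. Among those 5, Os.33244.1.S2_at of P5CS2 passed the filter on dim signals only through the salt arrays. The median of all tested probe sets was itself 0.67 higher under salt on the log2 scale, and 0.04 higher with quantile normalization. With limma, 0 of the 6 and 0% of all tested probe sets were called; 3 of the 6 and 20.3% of all had an unadjusted p under 0.05.

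P5CS1 read 145.2 and 396.0 in MI48 under salt, against 52.6 and 57.0 in control, a log2 difference of 2.12 ± 0.65 (limma adjusted p 0.16). P5CS2 (Os.33244.1.S1_at) read 20.2 and 90.0 in MI48 under salt, against 8.3 and 14.95 in control, a difference of 1.90 ± 0.79 (0.23). For both genes the salt arrays lay above the control arrays and differed widely from each other. With quantile normalization the differences shrank to 0.77 and 0.69. Os.33244.1.S2_at of P5CS2 read 2.20 and 8.55 under salt, against 0.1 and 1.39 in control, a difference of 2.42 ± 1.08 (limma adjusted p 0.26). This probe set passed the filter on dim signals only through the MI48 salt arrays, as both control arrays lay under the limit of 1.9. Its rise is therefore no separate support for P5CS2. With 0.25 of the pseudocount the difference was 3.07.

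BADH1 read 84.2 and 80.1 in MI48 under salt, against 21.3 and 19.3 in control, a difference of 2.00 ± 0.51 (limma adjusted p 0.14; 0.70 with quantile normalization). Its arrays agreed closely within each condition. TPP2 read 12.5 and 11.9 under salt, against 6.9 and 0.76 in control, a difference of 2.14 ± 0.93 (0.25). TPP1 read 5.57 and 2.48 under salt, against 19.8 and 5.19 in control, so its groups overlapped, with a difference of -1.37 ± 0.80 (0.37; -2.23 with quantile normalization). TPP1 was the single one of the 6 below 0 in MI48, as it was the single one called lower in the bulks.

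**Figure D5:**
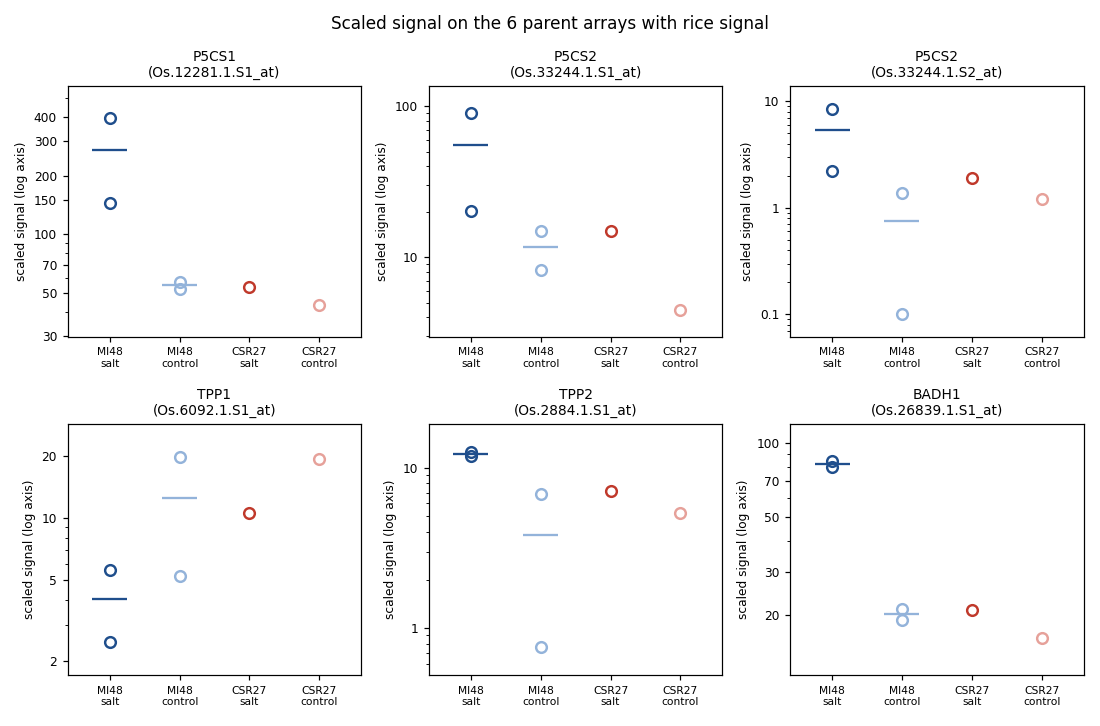
Scaled signal (log axis, no unit) of the 6 tested probe sets on the 6 parent arrays with rice signal, in MI48 under salt and control (2 arrays each, line at the mean) and CSR27 under salt and control (1 array each). P5CS1 reads 145.2 and 396.0 in MI48 under salt against 52.6 and 57.0 in control, and 53.6 in CSR27 under salt against 43.4 in control.

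MI48's calls depended on the fit. With all 14 arrays with rice signal, 5 of the 6 were called, all but TPP1, among 11271 of all probe sets. How many probe sets were tested in that fit is not given here, so the 5 of the 6 have no share over all beside them. In the same arrays with quantile normalization, added after the data were seen, 1 was called, TPP1 with a difference of -2.18 (limma adjusted p 0.035). The deposited medians of the MI48 salt arrays were 86.3 and 4.6, against 1.9 and 1.5 for its control arrays. Single arrays also moved the sizes. Without MI48 salt replicate 1, P5CS2 (Os.33244.1.S1_at) had a difference of 2.97. Without salt replicate 2 it had 0.84, P5CS1 had 1.4 and TPP1 had -0.84. Without control replicate 1, TPP1 had -0.44, TPP2 had 3.47 and Os.33244.1.S2_at had 1.44. Without control replicate 2, TPP1 had -2.3 and TPP2 had 0.79. BADH1 stayed between 1.93 and 2.07 with any one MI48 array left out.

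In CSR27, the tolerant parent, the values are those of 1 array per condition, with no replicate check and no test. P5CS2 (Os.33244.1.S1_at) read 14.8 under salt, against 4.5 in control, a log2 difference of 1.65. TPP1 read 10.6 under salt, against 19.3 in control, a difference of -0.85. P5CS1 read 53.6 under salt, against 43.4 in control, and BADH1 read 21.0 under salt, against 16.2 in control. Their log2 differences were 0.30 and 0.37. TPP2 read 7.13 under salt, against 5.2 in control, and Os.33244.1.S2_at of P5CS2 read 1.90 under salt, against 1.2 in control. Of the 6 probe sets, 1 was at least 2-fold higher and 0 at least 2-fold lower, against 17.4% and 23.5% of all tested probe sets. The signs of P5CS1, P5CS2 (Os.33244.1.S1_at), TPP1, TPP2 and BADH1 were the same in CSR27 as in the bulk averages. Of these, TPP2 lay at 0.13 in the bulk average (limma adjusted p 0.8), so its sign there is uncertain. Os.33244.1.S2_at was at 0.54 in CSR27 and -0.02 in the bulk average. The share of all probe sets with matching signs is not given here, so these matches are no replication of the bulk results.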

How the data were processed

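The table was the series' value table. The deposited intensity values, 1 per probe set and array on a linear scale, come from GCOS 1.2, per the submitters' processing notes, with settings that the sources used here do not give. No common scale was found: deposited medians ran from 14.8 to 26.1 on the bulk arrays and from 1.5 to 86.3 on the 6 parent arrays with rice signal. Of 57381 probe sets, 123 controls were left out. An array was held to carry no rice signal when its rank correlation with every other array was under 0.1, which left out 2 of 16. Each array was scaled to the common log2 median of its fit. Probe sets were kept when at least 2 arrays reached the overall median (17.7 for the bulks, 1.9 for the parents), and log2(value + pseudocount) was tested, with the 25th percentile of all values as pseudocount (3.86 and 0.356), which understates the folds of dim genes. Tests used limma 3.58.1 (lmFit, eBayes with an intensity trend, two-sided) in R 4.3.3, with a group-means model and Benjamini-Hochberg adjustment over all tested probe sets. The code was tested on simulated data.

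Names came from the annotation of the platform and a gene table of assembly ASM3414082v1, used for names alone; 22436 probe sets had 1 gene and 95 had several. The text names every probe set of the 6 genes, the listed other genes of the 3 pathways, and the 3 named probe sets nearest to each called gene. The genes, the lists, the tissue markers and the use of separate fits for bulks and parents were chosen with earlier results of these data known. The alternatives comprised no filter, quantile normalization, a pseudocount at 0.25 of its value, a block for the replicate number, fits of the compared arrays alone, 14 or 16 arrays, and each array left out. Replicate numbers did not pair the arrays: over 6 pairs of bulk groups the deviations correlated at 0 to 0.03.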

Additional observations from a re-analysis of the deposited data

Results flagged for a closer look

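PROT, the proline transporter on probe set Os.3739.1.S1_at, had differences of opposite sign in the bulks and in MI48, none of which passed the threshold on its own. Both salt arrays lay below both control arrays in the tolerant bulk (log2 difference -0.81, limma adjusted p 0.2), as in 38.9% of all tested probe sets. The same held in the sensitive bulk (-1.07, 0.078), as in 33.4% of all tested probe sets. In MI48 both salt arrays lay above both control arrays (1.09, 0.33), as in 41% of all tested probe sets there. In CSR27, with 1 array per condition and no test, it was -2.13. The difference between them was not tested, because bulks and parents were scaled and fitted apart. All probe sets together had a median of 0.67 in MI48, and with quantile normalization the value of PROT there was -0.01.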

How the results depend on the processing

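As reported, 2, 2 and 4 of the 6 probe sets were called in the tolerant bulk, the sensitive bulk and their average, and 0 in every other comparison. Quantile normalization gave 4 in the tolerant and 4 in the sensitive bulk, and no filter gave 2 in the average. Fitting only the arrays compared gave 4 in the tolerant and 1 in the sensitive bulk. The fit of 14 arrays gave 0, 0 and 0 in the bulks and 5 in MI48 (not TPP1), where calls over all probe sets rose too. That of 16 arrays gave 0, 0 and 0 in the bulks. Quantile normalization of the 14 arrays, added after the data were seen, gave 1 in MI48 (TPP1). The share over all probe sets is not given here for these 14-array counts. With 1 array left out, a lone array being taken to vary as the rest do, the counts ran from 1 to 4 in the tolerant bulk, 0 to 4 in the sensitive bulk, 2 to 4 in the average and 0 to 1 between the bulks in control. With the replicate number as a block they were 2, 2, 4 and 0 in MI48, so the block changed no call of these genes; over all probe sets in MI48 it called 1570 instead of 0. Without sensitive bulk control replicate 2 the counts over all probe sets rose most, to 4465 in the tolerant and 7263 in the sensitive bulk, against 1785 and 2152 as reported. They were lowest at 379 in the tolerant bulk, without its control replicate 2, at 360 in the sensitive bulk, without its salt replicate 2, and at 0 between the bulks under salt, without tolerant bulk salt replicate 1 (423 as reported), so the background shares beside the counts of the 6 moved as well. Over all probe sets, quantile normalization called 1649 and 2136, the fit of 14 arrays 3 and 2, and that of 16 arrays 0 and 0. The other genes of the pathways ran from 0 to 3 calls in the average with 1 array left out, against 1 as reported. Of 610 values of the 6 probe sets under an alternative, 521 kept their direction and side of the threshold, 37 lost a call, 18 gained one, 0 called values changed sign, and 34 changed sign with neither value called. A call could be lost only where the reported fit made one, and most of the 610 values belong to results that it did not call. The share that kept its side of the threshold is therefore no measure of how stable the calls were. The cause was not tested where calls changed. The filter left signals near background, such as 2 probe sets of P5CS2, out of the main fits. Without the filter their averaged differences in the bulks were -1.14 (Os.51895.1.S1_at, limma adjusted p 0.17) and -0.02 (Os.27547.3.A1_at, limma adjusted p 0.96). With 2 arrays a group, values so near background are imprecise.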
